A study of Homo sapiens and Mus musculus with 13 samples.

Results

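The mouse genes Otx1, Ncald, Cpd, Mlph and Cldn10 were examined in breast tumors that differ in the dose of Trim11, and their human counterparts OTX1, NCALD, CPD, MLPH and CLDN10 in breast cancer cells with guides against TRIM11. The 5 genes were chosen on measured values of these same 6 tumors, as protein-coding genes that set the 2 genotypes apart, so their tumor values are given as a description with no test. They are 5 of the 55228 symbols in the tumor table, and all 5 are among the 17328 genes with a mean level high enough to be analyzed. In the human table of 24523 symbols all 5 counterparts are listed, and 3 of them, OTX1, CPD and MLPH, are among the 12636 analyzed genes.

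There were 3 tumors of Trim11+/+ and 3 of Trim11+/- mice at an age of 3 months, with 1 library per tumor. The sample labels used here name no animal, and in the study each genotype had more tumors than mice. Whether each tumor came from a separate mouse is thus not known, and n = 3 counts tumors. All of these mice carried MMTV-PyVT, on a hybrid background of C57BL/6N and FVB/N. In this transgene a mammary tumor virus promoter drives a viral oncogene in the mammary gland. In the Trim11+/- mice the CRISPR/Cas9 system had removed exons 2 to 6 of 1 copy of Trim11, a gene for a ubiquitin E3 ligase. The methods give 634Mul/J as the transgenic stock, while the labels number it from 634Mul/J to 639Mul/J over the 6 tumors, and which is right was not settled here. The human libraries came from 7 lines of MDA-MB-231, a triple-negative breast cancer cell line, that had received Cas9 and guides. There was 1 Control line with a GFP guide, 1 line for each of 2 TRIM11 guides (TRIM11-KD1 and TRIM11-KD2), 1 for each of 2 KDM5C guides (KDM5C-KD1 and KDM5C-KD2), and 2 double knockdown lines that combined KDM5C guide 2 with TRIM11 guide 1 (DKD1) or 2 (DKD2). Nothing in the labels says that the lines came from separate cultures, so the p-values measure the spread between these libraries. Expression is given in FPKM, a fragment number divided by the length of the gene and the size of the library, which allows levels of different genes to be compared per length.

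The 5 genes have unlike jobs. Otx1 encodes a homeodomain transcription factor of the head and brain, which is also active in the mammary gland. Ncald encodes neurocalcin delta, a calcium sensor that binds membranes when calcium rises. Cpd encodes carboxypeptidase D, a membrane enzyme of the trans-Golgi network that trims basic residues from the ends of secreted peptides. Mlph encodes melanophilin, the adaptor that ties Rab27a on melanosomes to the motor myosin Va. Cldn10 encodes claudin-10, a tight junction protein that forms channels for ions between epithelial cells.

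The sequences that bear on how 2 of these genes can be read are shown here. Homeodomains of the Otx class carry a lysine in the helix that contacts DNA, and the codon of this lysine is in capitals in the coding stretch of 60 bases around it. The mouse stretch lies on the minus strand within chr11:21997017-21998387 of mm10 and the human one on the plus strand within chr2:63281316-63282677 of hg19, and each crosses an exon boundary. They differ at 4 bases.
Otx1: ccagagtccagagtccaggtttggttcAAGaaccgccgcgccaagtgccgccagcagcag
OTX1: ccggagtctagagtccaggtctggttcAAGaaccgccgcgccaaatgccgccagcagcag
For Cldn10 the annotation has 2 coding starts in separate first exons, and the proteins made from them begin with different residues. The first 60 coding bases from each are shown with the start codon in capitals, the upstream one at chr14:118788157-118788216 and the downstream one at chr14:118854990-118855049 of mm10, both on the plus strand. The deposited table has 1 value for the gene, so its levels are sums over both starts.
Cldn10 upstream start: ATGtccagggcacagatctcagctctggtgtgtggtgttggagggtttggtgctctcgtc
Cldn10 downstream start: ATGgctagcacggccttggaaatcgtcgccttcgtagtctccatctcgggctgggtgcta
Over the longest annotated coding sequences, mouse and human were identical at 88.8% of aligned bases for Otx1, 85.9% for Ncald, 88.6% for Cpd, 75.4% for Mlph and 88.3% for Cldn10. Mlph was the least alike of the 5.

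The library totals by which the tumor FPKM values were scaled, recovered from these values, lay between 8793199 and 11117125. They are not the number of all reads sequenced. Counts given as reads below are in the unit of these totals. Trim11 was at 37.1 ± 1.84 FPKM (SD, n = 3) in Trim11+/+ and 23.2 ± 0.660 FPKM (SD, n = 3) in Trim11+/- tumors, lower in each Trim11+/- tumor than in any Trim11+/+ tumor. Kdm5c, the gene of the histone demethylase whose protein the study follows, was at 27.7 ± 2.62 and 24.1 ± 0.647 FPKM (SD, n = 3 each). Luminal epithelium markers had a summed level between 1486 and 2053 FPKM, carried by keratins and a few others while the steroid hormone receptors Esr1 and Pgr stayed under 2 FPKM. None of 15 was at 0 throughout, and 0 of 14 analyzed had a mean changed by 1.5-fold with an unadjusted p under 0.05. Each tumor is a mixture of cells, in which fewer cells of a type and less RNA per cell cannot be told apart.

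All 5 genes were higher in each Trim11+/- tumor than in any Trim11+/+ tumor, which holds for 6.6% of all analyzed genes, and which the choice of the 5 genes fixes. All 5 also pass a rule of a 1.5-fold higher mean and an unadjusted limma p under 0.05, as 1.74% of analyzed genes do, while 1.87% pass it in the lower direction. The thresholds are those of the study, but its p came from its own pipeline, so these are not its calls. These counts follow from how the genes were chosen and say nothing further.

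Otx1 (ENSMUSG00000005917.15, chr11:21994764-22002897, minus strand, mm10) was the lowest of the 5 in level and had the largest ratio. Its FPKM was 0.169, 0.345 and 0.698 in the Trim11+/+ tumors, from 10, 19 and 38 reads. In the Trim11+/- tumors it was 5.16, 7.07 and 6.04 FPKM, from 311, 337 and 352 reads. The groups were far apart, with the lowest Trim11+/- tumor 7.39 times above the highest Trim11+/+ tumor. The means were 0.404 ± 0.270 and 6.09 ± 0.955 FPKM (SD, n = 3 each), a ratio of 15.1, or 23.7 without the third Trim11+/+ tumor. For the Trim11+/+ tumor with the fewest reads the 95% Poisson interval of its level was 0.0809 to 0.310 FPKM, which covers counting error only.
Its Trim11+/+ mean was under the limit of 0.5 FPKM for analysis, so Otx1 was analyzed through its level in the Trim11+/- tumors, and the other 4 genes were above that limit in both genotypes. On the scale of log2(FPKM + 1), used for all comparisons across genes, its difference was 2.34, and since this scale understates the change of low genes the log2 of the ratio of means was larger, at 3.91.

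Ncald (ENSMUSG00000051359.15, chr15:37366175-37792570, minus strand) was at 4.01, 5.10 and 6.91 FPKM in the Trim11+/+ tumors. It was at 18.8, 24.2 and 18.5 FPKM in the Trim11+/- tumors. The means were 5.34 ± 1.46 and 20.5 ± 3.21 FPKM (SD, n = 3 each), a ratio of 3.84. Within each genotype the tumors of this calcium sensor stayed close, with a highest to lowest ratio of 1.72 in Trim11+/+ and 1.31 in Trim11+/- tumors.
An antisense gene, Gm28221, lies on the opposite strand inside the Ncald locus (chr15:37367205-37368498), close to the 3' end of Ncald. It was at 15.3, 27.8 and 43.1 FPKM in Trim11+/+ and at 80.9, 118 and 81.8 FPKM in Trim11+/- tumors. The order of the 3 tumors in Trim11+/+, and the tumor with the highest level in Trim11+/-, were the same as for Ncald. The libraries did not keep the strand, so reads of Ncald and Gm28221 cannot be told apart where the genes overlap.

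Cpd (ENSMUSG00000020841.5, chr11:76778424-76847018, minus strand) was the most abundant of the 5. Its level was 56.1, 63.4 and 65.0 FPKM in Trim11+/+ tumors and 116, 124 and 137 FPKM in Trim11+/- tumors, each from at least 5108 reads. The means were 61.5 ± 4.72 and 126 ± 10.6 FPKM (SD, n = 3 each), a ratio of 2.05. The SD was 7.68% and 8.40% of the mean in the 2 genotypes for this enzyme.

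Mlph (ENSMUSG00000026303.6, chr1:90915085-90951142, plus strand) had the smallest ratio and the tightest values. It was at 21.8, 20.7 and 20.7 FPKM in Trim11+/+ tumors and at 33.2, 32.7 and 34.3 FPKM in Trim11+/- tumors. The means were 21.1 ± 0.611 and 33.4 ± 0.797 FPKM (SD, n = 3 each), a ratio of 1.59. The SD was 2.90% and 2.39% of the mean. Melanophilin thus separated the genotypes by its small spread, and Otx1 by the size of its difference.

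Cldn10 (ENSMUSG00000022132.15, chr14:118787908-118875489, plus strand) was the least even of the 5 in Trim11+/- tumors, as Otx1 was in Trim11+/+ tumors. It was at 2.19, 1.94 and 1.12 FPKM in Trim11+/+ tumors. In the Trim11+/- tumors it was at 9.17, 24.6 and 4.02 FPKM, from 264, 561 and 112 reads, so these 3 tumors differed among themselves by up to 6.12 times. The means were 1.75 ± 0.562 and 12.6 ± 10.7 FPKM (SD, n = 3 each), a ratio of 7.21, or 3.77 without the second Trim11+/- tumor. The lowest Trim11+/- tumor was 1.84 times above the highest Trim11+/+ tumor. The SD of this claudin in Trim11+/- tumors was 85.1% of its mean.

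**Figure D1:**
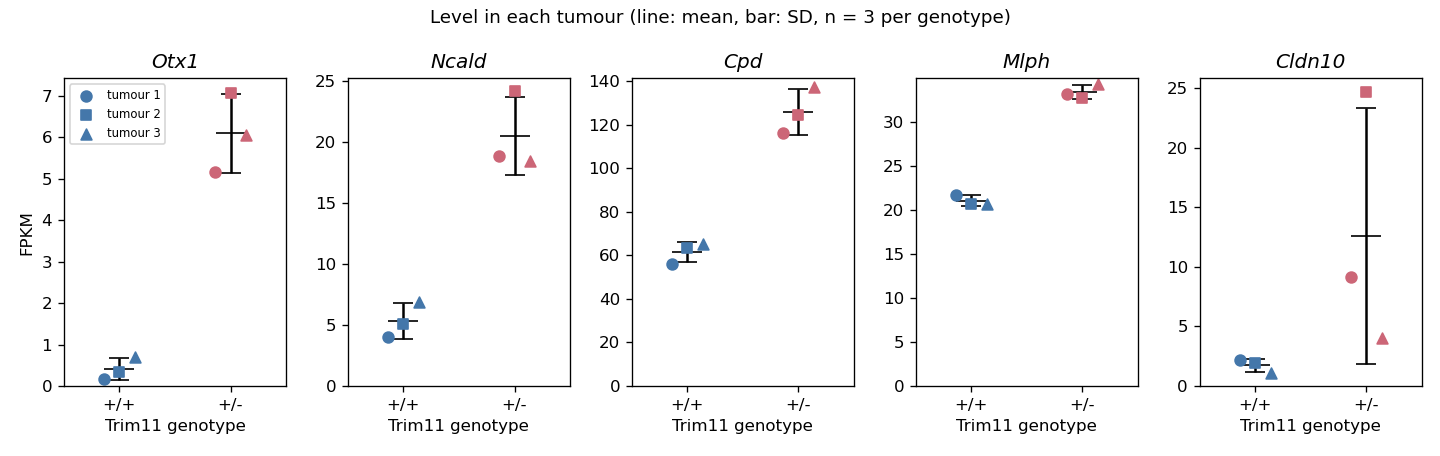
FPKM of the 5 genes in each tumor, with 1 panel per gene and its own axis from 0, points for single tumors, a line for the mean and a bar for the SD (n = 3 per genotype). Mlph runs from 20.7 to 34.3 FPKM with little spread in either genotype, while Cldn10 spans 4.02 to 24.6 FPKM among the Trim11+/- tumors.

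How clearly a gene separates the genotypes depends on the measure. By the size of limma's moderated t, a difference divided by its estimated error and used here only to rank genes, Otx1 was at rank 1, Cpd at rank 2, Ncald at rank 3 and Mlph at rank 6 of 12875 analyzed protein-coding genes. Cldn10 was at rank 168. These ranks use the values on which the genes were chosen and describe them only. By the gap between the groups, the distance from the highest Trim11+/+ to the lowest Trim11+/- tumor in log2(FPKM + 1), the ranks were 3 for Otx1 (a gap of 1.86), 6 for Ncald (1.30), 10 for Cpd (0.83), 16 for Cldn10 (0.65) and 23 for Mlph (0.57). By the ratio of means Otx1 was at rank 16, Cldn10 at rank 24 and Mlph at rank 371.
The genes between and just after the leading 4 by the moderated t were Hbb-bs (rank 4), a beta globin with means of 22.5 and 9.60 FPKM, the histone gene Hist1h4i (rank 5) with 13.1 and 22.8 FPKM, and Trim11 itself at rank 7.

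**Figure D2:**
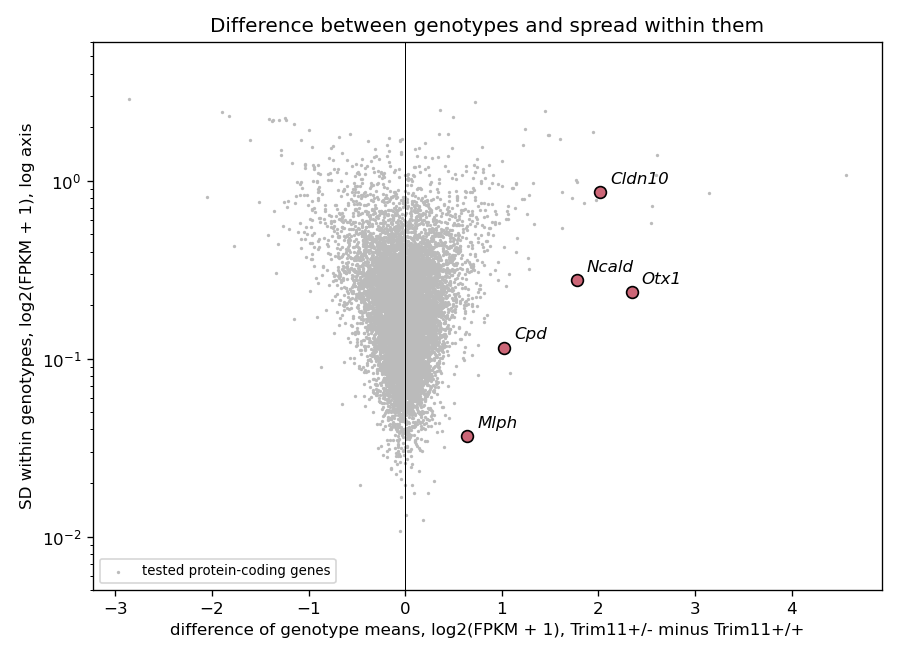
Difference of genotype means in log2(FPKM + 1), Trim11+/- minus Trim11+/+ (x axis), against the SD within genotypes on a log axis (y axis) for 12875 protein-coding genes, with the 5 chosen genes in red. Otx1 lies at a difference of 2.34 and Mlph at 0.64 with a smaller SD, while Cldn10, at 2.02, lies among genes of large spread.

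The order of the 5 levels was the same in both genotypes, from Cpd through Mlph, Ncald and Cldn10 to Otx1. In Trim11+/+ tumors the ranges of neighbors in this order did not overlap. In Trim11+/- tumors the range of Cldn10 took in that of Otx1 and of Ncald, so Cldn10 is not set apart from either beyond its spread, while Otx1 and Ncald did not overlap. Over the 6 tumors Otx1 and Ncald followed each other most closely, with a Pearson correlation of 0.994 in log2(FPKM + 1), and Cpd and Cldn10 least, at 0.754. These correlations describe genes chosen for the same difference and share the 6 libraries.
Among 8170 protein-coding genes with a mean of at least 5 FPKM, the pattern most like that of Otx1 was that of Vasn, with a correlation of 0.994 and means of 9.22 and 11.6 FPKM, followed by Rnf121 (0.993) and Prob1 (0.990). For Ncald they were Btbd3 (0.994), Vasn (0.993) and Prkd3 (0.985). For Cpd they were Gpr108 (0.995), Prepl (0.995) and Arhgap5 (0.990). For Mlph they were Usp47 (0.990), Slc25a23 (0.989) and Rnf121 (0.987). For Cldn10 they were Nt5c2 (0.988), Mtmr6 (0.986) and Arfip2 (0.985). Vasn and Rnf121 each came up for a pair of the 5 genes, and all of these genes moved over a narrower range than Otx1 did. Each of them had a higher mean in Trim11+/- tumors. Since the 5 genes were chosen for that difference, the search mostly finds genes that share it and describes them only.

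Otx1 and Cpd lie on chromosome 11, as Trim11 does, at distances of 36.98 and 17.8 Mb from it. The other 3 genes lie on chromosomes 1, 14 and 15. Of 1407 analyzed genes on chromosome 11, 33 (2.35%) were higher and 27 (1.92%) lower by the fold and p rule, beside 1.74% and 1.87% of all analyzed genes. The deletion was made in C57BL/6N mice, which were backcrossed for at least 3 generations before the cross with FVB/N mice. The methods do not name the backcross strain. By this design the deletion and strain alleles linked to it on chromosome 11 cannot be told apart.
The nearest analyzed protein-coding genes were examined on both sides of each of the 5. On the sides of Otx1, Wdpcp had a ratio of 1.01 and Ehbp1, 2.93 kb away, a ratio of 1.06. Beside Ncald, Grhl2 had a ratio of 1.03 at 2.61 kb and Rrm2b of 1.10. These 4 neighbors did not pass the rule, in contrast to the large differences of Otx1 and Ncald.
Beside Cpd, Gosr1 had a ratio of 1.19 and did not pass, while Tmigd1, 55.1 kb away, passed with means of 0.513 ± 0.0858 and 1.55 ± 0.491 FPKM (SD, n = 3 each; limma, Benjamini-Hochberg adjusted p = 0.607). Beside Mlph, Col6a3 had a ratio of 0.723 and did not pass. Prlh, 1.97 kb past the end of Mlph on the same strand, passed with means of 0.239 ± 0.207 and 1.05 ± 0.270 FPKM (SD, n = 3 each; limma adjusted p = 0.634), from 0 to 4 reads per tumor. Beside Cldn10, Gpr180 and Dnajc3 had ratios of 0.868 and 0.930. Prlh reached the limit of 0.5 FPKM for analysis through its Trim11+/- level and could pass only as higher. The share of all genes that pass as higher is 1.74%, and neither neighbor passed after adjustment over all genes.

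The relatives of each gene were examined by the same rule in lists set by family. Over all analyzed genes 1.74% were higher and 1.87% lower by this rule, and the median difference was -0.0048 in log2(FPKM + 1). Of the homeobox genes related to Otx1, none of the other 8 was analyzed, and Otx2, Gsc2 and Dmbx1 were at 0 in all 6 tumors. The highest mean in either genotype among the other 5 was that of Gsc, at 0.0776 FPKM. Otx1 was thus the family member with reads to compare.
Of the calcium sensors related to neurocalcin, 3 were analyzed, and 0 were higher and 0 lower, with a median of -0.03. Of the carboxypeptidases, 9 besides Cpd were analyzed, 2 were higher and 0 lower, and the median was -0.04. Cpm, a carboxypeptidase anchored on the cell surface, was at 3.41, 2.77 and 2.52 FPKM in Trim11+/+ and at 11.3, 9.17 and 3.09 FPKM in Trim11+/- tumors, so the groups overlapped (ratio 2.70, limma adjusted p = 0.707). Cpe, which processes prohormones, had means of 13.8 ± 5.18 and 28.0 ± 11.7 FPKM (SD, n = 3 each; limma adjusted p = 0.713). The groups of Cpe overlapped as well, from 9.68 to 19.6 and from 14.9 to 37.6 FPKM.
Of Rab27 and its effectors, 9 besides Mlph were analyzed, and 0 were higher and 0 lower, with a median of 0.11. The partners of melanophilin, named for their known role after their values were seen, are Rab27a and Myo5a. Rab27a was at 10.3, 3.17 and 5.81 FPKM in Trim11+/+ and at 4.55, 5.45 and 26.0 FPKM in Trim11+/- tumors (limma adjusted p = 0.891), and the third Trim11+/- tumor alone stood above the others. Myo5a had means of 2.52 ± 0.644 and 2.42 ± 0.180 FPKM (SD, n = 3 each; limma adjusted p = 0.985). Both were below Mlph in each genotype mean.
Of the claudins and their tight junction partners, 18 besides Cldn10 were analyzed, 1 was higher and 1 lower, and the median was -0.09. Cldn2, a claudin that forms cation channels, had means of 17.8 ± 5.70 and 31.9 ± 8.89 FPKM (SD, n = 3 each; limma adjusted p = 0.658), with overlap between the groups. Cldn23 was lower, at 5.55 ± 1.46 and 3.56 ± 0.325 FPKM (SD, n = 3 each; limma adjusted p = 0.686). None of the genes named from the 5 families passed after adjustment, as 1 of all 17328 analyzed genes did, the noncoding 2610507I01Rik.

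**Figure D3:**
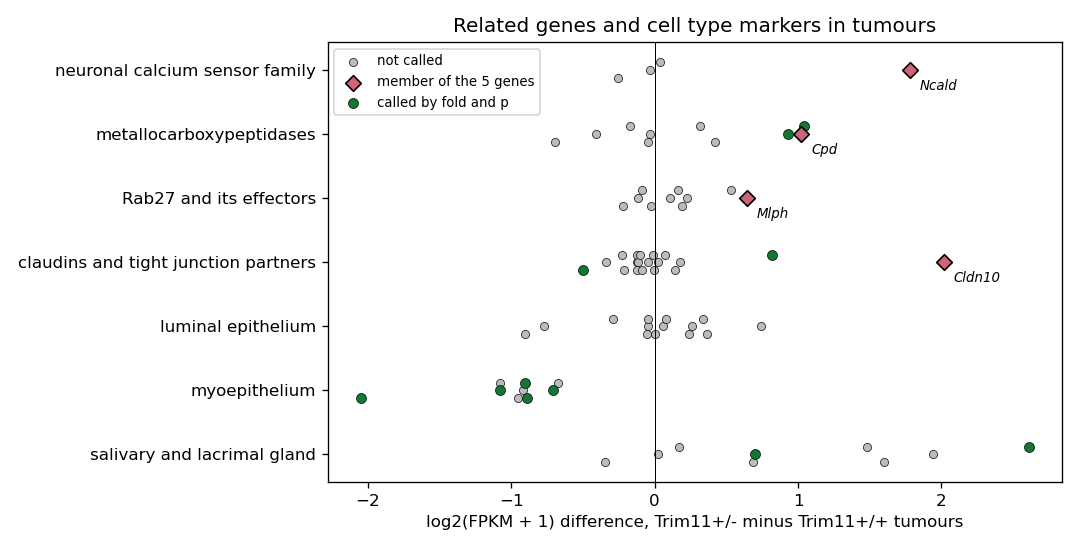
Difference in log2(FPKM + 1), Trim11+/- minus Trim11+/+ tumors, for each analyzed gene of 7 lists (points), with genes that passed the fold and p rule in green and 4 of the chosen genes as red diamonds. Myoepithelial markers all lie below 0, with 5 of 9 in green, while the calcium sensors and the Rab27 group have none in green.

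Markers of other cells were followed because these 5 genes are also expressed outside the luminal epithelium. Myoepithelial markers had a summed level from 148 to 371 FPKM in Trim11+/+ and from 70.8 to 101 FPKM in Trim11+/- tumors, with the highest sum in the first Trim11+/+ tumor. Of 9 markers, 5 passed the rule as lower and 0 as higher, beside 1.87% and 1.74% of all genes, with a median of -0.92 and none at 0 in all tumors. Krt5, a basal keratin, had means of 65.5 ± 37.8 and 14.3 ± 6.24 FPKM (SD, n = 3 each; limma adjusted p = 0.610), and Oxtr, the oxytocin receptor, of 7.37 ± 3.24 and 2.76 ± 0.222 FPKM (SD, n = 3 each; limma adjusted p = 0.632). Krt14 and Krt17 had ratios of 0.533 and 0.483, and Trp63 was the other marker that passed. The contractile markers Acta2, Myh11, Cnn1 and Mylk did not pass. Each was highest in the first Trim11+/+ tumor, and its groups overlapped. Acta2 was at 138, 36.5 and 21.6 FPKM in Trim11+/+ and at 17.0, 23.9 and 27.0 FPKM in Trim11+/- tumors. The part of the myoepithelium in the values of the 5 genes was not tested.
Of 9 analyzed salivary and lacrimal gland markers, 2 were higher and 0 lower, beside 1.74% and 1.87% of all genes, with a median of 0.70, and Muc19 and Smgc were at 0 in all 6 tumors. The summed level, most of it Csn3, which is also a milk gene, was 1577 to 2727 FPKM in Trim11+/+ and 1464 to 2430 FPKM in Trim11+/- tumors. Pip, a secreted protein of exocrine glands, was at 1.07, 0 and 2.13 FPKM in Trim11+/+ and 3.804, 5.52 and 45.9 FPKM in Trim11+/- tumors (limma adjusted p = 0.678). The Trim11+/- tumor with the highest Pip was the one with the lowest Cldn10. Lpo, the secreted lactoperoxidase, was at 0.584, 0.502 and 1.11 FPKM and at 1.69, 2.68 and 1.16 FPKM (limma adjusted p = 0.693), and its order among the Trim11+/- tumors was that of Cldn10. The part of gland tissue in these values was not tested.
Melanocytes, the cells in which melanophilin is best known, were followed by 7 markers. Tyr was at 0 in all 6 tumors, Tyrp1 at 0 in 5 of them, and Dct and Mlana at no more than 0.310 and 0.433 FPKM. Pmel, a melanosome protein, was at 2.91, 2.83 and 2.70 FPKM in Trim11+/+ and at 3.14, 3.57 and 4.14 FPKM in Trim11+/- tumors (limma adjusted p = 0.726). Its groups did not overlap, as is so in this direction for 6.6% of all analyzed genes. Mitf was at 0.796 to 1.54 FPKM. The summed melanocyte level of 159 to 262 FPKM was mostly that of Sox10, which the mammary epithelium also expresses, and 0 of 3 analyzed markers passed. Neuronal markers summed to between 0.343 and 0.967 FPKM, and none was analyzed. Of the markers of fibroblasts, endothelium, macrophages, T cells, adipocytes and skeletal muscle, 0 passed in either direction. Skeletal muscle markers were uneven between tumors of 1 genotype, from 0.814 to 237 FPKM in Trim11+/-, with the highest sum in the tumor that was in the middle for Cldn10.

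In the human lines the same genes were compared under the TRIM11 guides, a contrast that the choice on tumor values did not use. None of the 3 analyzed genes passed the test of lines with a TRIM11 guide against lines without one. Nor did any other gene, with 0% of 12636 at an adjusted p under 0.05 in limma, 1 gene without TRIM11-KD1 or without DKD1, and 1348 genes at an unadjusted p under 0.05. As a check of the guides, the mRNA of TRIM11 was at 12.6 FPKM in Control, at 13.4 FPKM in the library labelled TRIM11-KD1, and at 10.6 FPKM in the one labelled TRIM11-KD2. The KDM5C-KD libraries had 13.6 and 14.2 FPKM, the library labelled DKD1 had 16.1 FPKM and DKD2 had 9.38 FPKM. The 2 libraries with TRIM11 guide 1 were thus above Control and the 2 with guide 2 below it, so the guide 1 lines show no lower TRIM11 mRNA. The study checked its knockdown lines by western blot, at the level of the protein, which mRNA values do not measure. For the values that follow, a guide is what the library is labelled with, and the protein was not measured here. KDM5C was at 30.3 FPKM in Control and between 18.8 and 22.7 FPKM in the 4 lines with a KDM5C guide.

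CPD (chr17:28705945-28797007, hg19) was the most abundant of the 5 in these cells too. It was at 53.5 FPKM in Control, 67.2 and 57.4 FPKM with TRIM11 guides 1 and 2, 61.1 and 76.1 FPKM with KDM5C guides 1 and 2, and 61.0 and 51.6 FPKM in the DKD lines. Lines with and without a TRIM11 guide overlapped. With the KDM5C guide as a term in the fit, the TRIM11 guide effect was -0.08 in log2(FPKM + 1) (standard error 0.15, 95% interval -0.43 to 0.27, limma adjusted p = 0.870). A two-sided exact permutation test of the 4 lines with a TRIM11 guide against the 3 without gave p = 0.571, where the smallest p this design allows is 0.0571. The sign of this effect rests on single libraries, since it was 0.0457 without KDM5C-KD2 and 0.0268 without DKD2.

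MLPH (chr2:238394071-238463965, hg19) was highest in Control, at 33.9 FPKM. It was at 26.6 and 20.9 FPKM with TRIM11 guides 1 and 2, 26.2 and 28.4 FPKM with KDM5C guides 1 and 2, and 27.3 and 21.1 FPKM in the DKD lines. The lowest levels were those of the 2 lines with TRIM11 guide 2, the lines that were also lowest in TRIM11 mRNA, while the 2 lines with guide 1 lay among those with KDM5C guides alone. The TRIM11 guide effect was -0.31 (standard error 0.14, 95% interval -0.64 to 0.02, limma adjusted p = 0.492). The exact permutation test gave p = 0.171. As a fold of FPKM + 1 the interval runs from 0.641 to 1.02, which takes in no change. Without the Control library, the highest for melanophilin, the effect was -0.18. That fit reduces to DKD against KDM5C-KD, a contrast given below, so it is no separate result.

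OTX1 (chr2:63277192-63284971, hg19) was low in all 7 lines. It was at 0.680 FPKM in Control, 0.877 and 0.969 FPKM with TRIM11 guides 1 and 2, 0.534 and 0.738 FPKM with KDM5C guides 1 and 2, and 0.626 and 0.796 FPKM in the DKD lines. The 2 TRIM11-KD lines were the highest, DKD2 was next and DKD1 was below Control, so lines with and without a TRIM11 guide overlapped. The TRIM11 guide effect was 0.12 (standard error 0.14, 95% interval -0.21 to 0.44, limma adjusted p = 0.786, exact permutation p = 0.229). It was 0.07 without the Control library, where the fit again reduces to DKD against KDM5C-KD. As a fold of FPKM + 1 the interval runs from 0.867 to 1.36. The cell line and tumor tables were normalized separately, and no level was compared between them.

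NCALD and CLDN10 were too low to be compared. NCALD was at 0.0315 FPKM in Control and between 0 and 0.0648 FPKM in the other 6 lines, with 3 of the 7 listed at 0. CLDN10 was listed at 0 in all 7 lines. The depth of the human libraries is unknown, so no limit can be set on the level that a listed 0 allows.

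**Figure D4:**
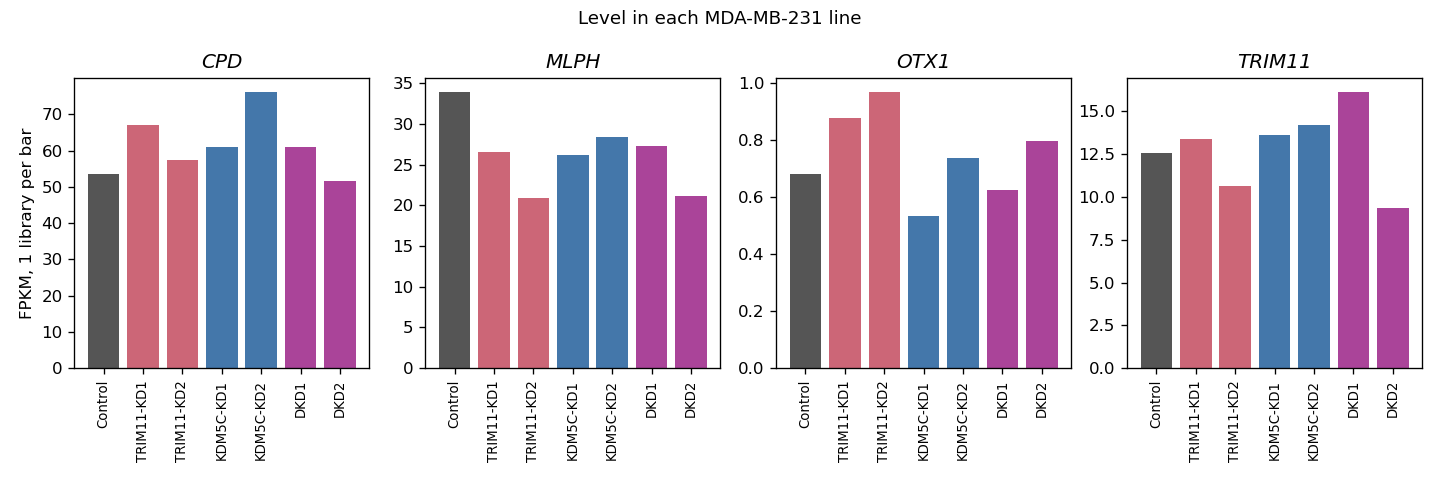
FPKM of CPD, MLPH and OTX1, and of TRIM11 as a check, in the 7 MDA-MB-231 lines, with 1 library per bar and axes from 0. MLPH is highest in Control at 33.9 FPKM and lowest in the lines with TRIM11 guide 2, and CPD shows no order by guide.

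TRIM11-KD was set against the single Control library by ratios, with no test, and a gene was counted when both TRIM11-KD lines were at least 1.5 times above it or both at least 1.5 times below it. This held for 3.33% of analyzed genes above and 2.58% below Control, and for none of OTX1, CPD and MLPH. The ratios of TRIM11-KD1 and TRIM11-KD2 to Control were 1.29 and 1.42 for OTX1, 1.26 and 1.07 for CPD, and 0.783 and 0.616 for MLPH. Only MLPH in TRIM11-KD2 was past the fold in a single line.
The TRIM11 guides were also compared within lines that carry a KDM5C guide, DKD against KDM5C-KD. Both DKD lines carry KDM5C guide 2, while the KDM5C-KD lines carry guide 1 or 2. The TRIM11 guide and the KDM5C guide used are thus partly mixed in this comparison. In this comparison 0% of 12636 genes had an adjusted p under 0.05 in limma, while 1473 had an unadjusted p under 0.05. The count after adjustment was 17 without KDM5C-KD1, 8 without KDM5C-KD2, 3 without DKD1 and 1 without DKD2. The differences were 0.07 for OTX1 (95% interval -0.38 to 0.51, limma adjusted p = 0.914), -0.28 for CPD (-0.67 to 0.12, adjusted p = 0.535) and -0.18 for MLPH (-0.61 to 0.25, adjusted p = 0.721). Without DKD2 the signs of OTX1 and MLPH turned, to -0.0056 and 0.0021, and without KDM5C-KD1 that of OTX1, to -0.0244. Without KDM5C-KD1 all lines compared carry KDM5C guide 2, with KDM5C-KD2 alone on the other side. The difference was then -0.43 for CPD and -0.23 for MLPH. The interaction of the 2 kinds of guide did not pass for any of the 3 genes, with adjusted p between 0.879 and 0.971.

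In the lines, 0 of the relatives of the 5 genes had an adjusted p under 0.05 for the TRIM11 guide. By the 1.5-fold rule against the single Control library, 3.33% of all analyzed genes were above it and 2.58% below it in both TRIM11-KD lines. Of 6 analyzed carboxypeptidases besides CPD, 0 were higher and 2 lower. CPQ was at 5.23 FPKM in Control and 2.99 and 2.75 FPKM with TRIM11 guides 1 and 2. CPVL was at 9.21, 4.02 and 1.26 FPKM. The fitted TRIM11 guide effect was 0.15 for CPQ and -1.57 for CPVL. Of 9 analyzed genes of the Rab27 group besides MLPH, 1 was higher and 1 lower. EXPH5, an effector, was at 2.43 against 4.15 and 4.74 FPKM. RPH3AL, a regulator of secretory granules, was at 8.85 against 5.43 and 2.17 FPKM. Of 18 analyzed genes of the claudin group, 2 were higher and 0 lower. CLDN3 was at 1.88 against 3.08 and 3.71 FPKM, and its fitted TRIM11 guide effect was -0.09. The scaffold gene TJP3, near the limit of 0.5 FPKM for analysis, was at 0.237 against 0.392 and 0.779 FPKM, with a fitted effect of 0.50. Of the other lists AREG, a ligand of the EGF receptor, was higher and CNN1, a contractile protein, lower. The KDM5C-KD lines carry no TRIM11 guide, and CPQ was at 2.52 and 1.49 FPKM there, and CPVL at 5.74 and 4.30 FPKM. EXPH5 was at 4.02 and 4.29 FPKM, CLDN3 at 8.16 and 4.80 FPKM and AREG at 13.1 and 16.7 FPKM. These genes thus differed from Control in the same direction without a TRIM11 guide. RPH3AL (8.85 and 16.1 FPKM), TJP3 (0.337 and 0.149 FPKM) and CNN1 (0.470 and 2.78 FPKM) did not in both lines.

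Promoter windows of RefSeq (GRCh38.p14, 300 bases around the start) were at hand for 4 of the 5 human genes, OTX1, CPD, MLPH and CLDN10, in 7 windows, and not for NCALD. They were searched on both strands, with overlapping matches counted. The OTX motif TAATCC and the TATA motif TATAAA were in none of the 7 windows, beside 6.36% and 11.5% of 35116 windows in all. The E-box CACGTG was in 1 window, of MLPH, beside 7.26% of all windows. The GC-box GGGCGG was in 5 of the 7, up to 6 times in OTX1, beside 45.0% of all windows. A match describes letters and not a site in use.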

How the data were processed

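Poly(A) RNA of 6 tumors and 7 cell lines gave non-directional libraries, which were sequenced as read pairs on an Illumina instrument. By the methods, reads were trimmed, tumor reads were aligned to mm10 and cell line reads to hg19 by HISAT2, and levels were computed with Cufflinks. The authors deposited 1 table of FPKM values per species. The submitters' processing notes also name Bowtie 0.12.2. Rows that share a symbol were reduced to the highest mean, and 25 human symbols turned into dates were left out. Genes with a mean of at least 0.5 FPKM were analyzed as log2(FPKM + 1) with limma 3.58.1 in R 4.3.3 (lmFit, eBayes with a trend), adjusted by the Benjamini-Hochberg method. Of tumor values above 0, 98.7% were whole reads within 0.01, given the gene lengths of GENCODE. Whether Cufflinks gave these tumor values was not settled here. The cell line depth is unknown. The computation was tested on simulated data. Exact permutation tests were two-sided. The 5 genes, the lists and the tests were chosen with earlier results of these data known. Named genes are the 5, the targeted genes, up to 4 passing genes per list, the 3 most correlated genes and the neighbors. Sequences are from GENCODE transcripts.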

Additional observations from a re-analysis of the deposited data

How the results depend on the processing

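Of the alternatives run, 145 values were counted as the same, 20 as moved in size or count, and 5 changed sign. They include the tumor differences of the 5 genes, whose direction the choice of genes fixed. A value counted as the same could still differ, as 439 higher genes without the third Trim11+/- tumor did from 301. The difference of Otx1 was 3.75 with a pseudocount of 0.1. Without a limit on mean FPKM 479 genes were higher and 491 lower in Trim11+/- tumors. The tumor numbers do not pair the samples (correlations of -0.33, 0.0385 and -0.13 between same-numbered tumors), and with the number as a replicate block 289 genes were higher, 284 lower and 0 passed after adjustment. With limma voom on whole reads 0 genes passed after adjustment. Leaving out 1 tumor gave 275 to 439 higher and 296 to 466 lower genes and 0 to 1 after adjustment, 0 for each tumor but the second Trim11+/- one. The ranks by moderated t ran from 1 to 4 for Otx1, 1 to 12 for Ncald, 1 to 8 for Cpd, 4 to 21 for Mlph and 31 to 419 for Cldn10. In the lines, leaving out 1 library gave 0 to 1 genes for the TRIM11 guide and 1 to 17 for DKD against KDM5C-KD. The effect of CPD was then -0.28 to 0.0457, with 0.0268 without DKD2, that of MLPH -0.43 to -0.18 and that of OTX1 0.07 to 0.18. The values -0.28, -0.18 and 0.07 are those without Control, where the fit equals DKD against KDM5C-KD. In DKD against KDM5C-KD, OTX1 was -0.0244 to 0.16, with -0.0056 without DKD2, and MLPH -0.35 to 0.0021. The causes were not tested. Against Control, a pseudocount of 1 gave 128 genes above and 150 below, and the mean of both lines 840 and 659. Adjusted p for OTX1, CPD and MLPH stayed at or above 0.309 in every setting of both comparisons. The line number as a block, fitted without Control, changed no call. For OTX1, CPD and MLPH its effects also equal those of DKD against KDM5C-KD. With 1 Control library, 2 lines per knockdown and 3 tumors per genotype, small differences could not be detected.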

Other observations

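The genes given here were named after their values were seen. The secretoglobin Scgb2b27 was at rank 8 and Scgb1b27 at rank 9 by moderated t among protein-coding genes. Scgb1b27 was at 15.8, 4.01 and 1.39 FPKM in Trim11+/+ tumors and at 104, 115 and 216 FPKM in Trim11+/- tumors. Scgb2b27 was at 52.9, 20.7 and 53.8 FPKM and at 191, 280 and 237 FPKM. Neither gene was part of the lists examined, and both belong to a multigene family with similar copies, so their values are uncertain. The water channel gene Aqp5 was at 137, 195 and 230 FPKM in Trim11+/+ and at 265, 430 and 226 FPKM in Trim11+/- tumors, and did not pass the fold and p rule. The Trim11+/- tumor with the highest Cldn10 was also the highest for Aqp5 and for Sox10, at 258 FPKM, and the one with the lowest Cldn10 was the lowest for both. The groups of Aqp5 overlapped, and Dcpp1 and Dcpp2 of the same gland list ran the other way, as given above.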
